A study of Mus musculus with 20 samples.

Results

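Silencing of hnRNP E1 in NMuMG cells was read from 4 of the 20 libraries of the study, 2 of E1KD and 2 of untreated NMuMG. NMuMG is an epithelial line from the normal mouse mammary gland, labelled as wild type here, and E1KD is the same line silenced with an shRNA against hnRNP E1, the protein made from Pcbp1. The shRNA was delivered by lentivirus, and the labels do not say whether E1KD is a pool or a clone. Since the NMuMG libraries carry no shRNA, effects of the vector, of the hairpin and of silencing cannot be told apart in this comparison. Of the 54986 genes in the table, 14387 had 1 CPM (the reads of a gene as a share of the reads of its library, on a fixed scale) or more in at least 2 of these 4 libraries and were tested, 11066 of them protein-coding. NMuMG cells treated with TGFb were compared as well. NMuMG with an overexpression vector that is empty (Empty vector) and E1KD cells that also carry a scrambled shRNA (E1KD SCR) form a further pair with and without the silencing. Levels are also given in E1KD cells with an shRNA against the noncoding RNA Platr18 (E1KD Platr18 KD), in E1KD cells from a primary tumor (M1P) and from lung metastases (L1P) in mice, and in NMuMG clones 12 and 16 that overexpress Platr18. The E1KD and NMuMG cells were grown in DMEM with serum, and all groups have 2 libraries each. The labels do not say whether these came from separate cultures, so p-values measure the spread between libraries only. For each gene this spread was shared by all 10 groups, while the E1KD libraries lay further apart than those of any other group. Standard errors (SE) and p-values of E1KD are thus likely too small.

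hnRNP E1 is an RNA-binding protein with KH domains. In unstimulated epithelial cells it holds a group of mRNAs, Dab2 and Fam3c among them, in a translationally silent state, and phosphorylation downstream of the TGFb receptor releases it. Epithelial-mesenchymal transition (EMT) is the program in which epithelial cells give up junctions and polarity and take on a spindle shape, mesenchymal filaments and a fibrous matrix, and transcription factors of the Snail, ZEB and Twist families drive it by binding E-boxes in epithelial promoters. An mRNA level does not show translation, which these libraries do not measure.

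In the 4 libraries 3 reads were worth between 0.0531 and 0.0590 CPM. The E1KD libraries did not match each other in scale. Replicate 1 lay above replicate 2 by a median of 0.32 on the log2 scale over the tested genes, where no other replicate pair of the study differed by more than 0.08 in size. Its values summed to 728645 CPM against 567409 CPM in replicate 2. A gene was called at an unadjusted p under 0.001 and a log2 fold change of at least 1 in size in limma. This gave 1599 genes, 11.1% of those tested, 1089 (7.57%) higher and 510 (3.54%) lower in E1KD, so that 68.1% of the calls were higher. The median log2 fold change of all tested genes was 0.22. After rescaling by median-of-ratios factors it was 0.03, a shift of 0.19, and 742 genes were called higher and 688 lower, 51.9% higher. Without E1KD replicate 1 the calls were 740 higher and 669 lower, and without E1KD replicate 2 they were 2429 higher and 453 lower. Below, a gene is said to have risen or fallen if it was called with deposited and with rescaled values in the same direction and its E1KD and NMuMG libraries did not overlap. This left 1248 genes (8.67%), 738 that rose (5.13%) and 510 that fell (3.54%), 676 and 439 of them protein-coding. All 510 lower calls met these conditions. Rescaling moved the fold changes down, so it could hardly remove a fall, and the condition on overlap removed no further gene. Without E1KD replicate 2 not all of the falls kept their call. Without E1KD replicate 1 the median log2 fold change of all tested genes was 0.01, and not all of the 1248 genes kept their call. Their libraries did not overlap by the rule, so leaving out a library could not change their direction. The libraries of 69.3% of all tested genes did not overlap, 46.9% with E1KD higher and 22.3% with E1KD lower. Fold changes are differences in log2(CPM + 1), so for genes at low CPM they are smaller than the ratio of the levels.

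**Figure D1:**
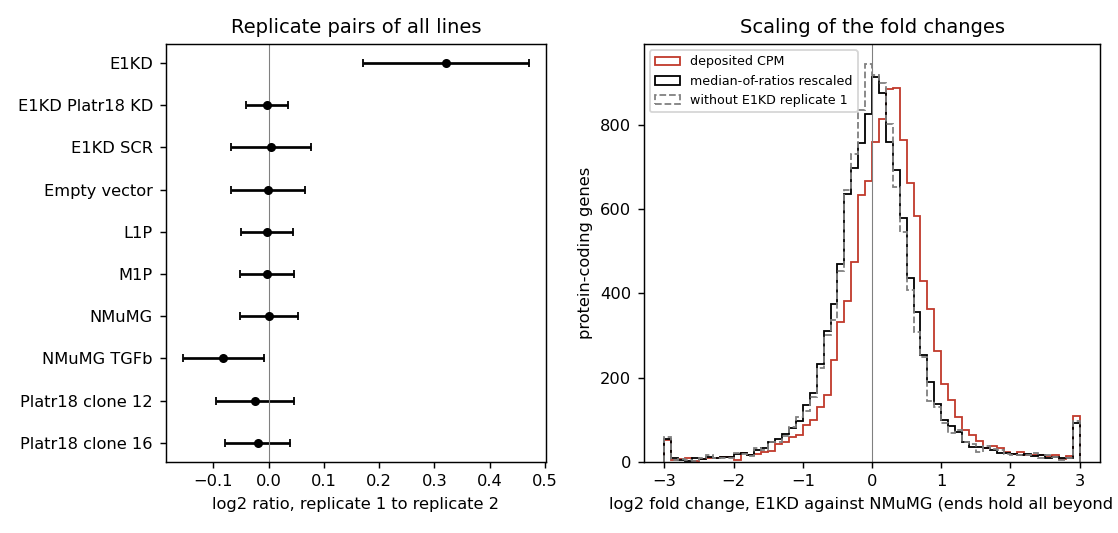
Left, the median log2 ratio of replicate 1 to replicate 2 over the tested genes in each of the 10 groups, with bars of 1 median absolute deviation to either side. Right, the number of protein-coding genes by log2 fold change of E1KD against NMuMG with deposited values, after median-of-ratios rescaling and without E1KD replicate 1. The E1KD pair is centred at 0.32 and the other 9 within 0.08 of 0, and the rescaled curve and the curve without replicate 1 lie to the left of the deposited one.

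Pcbp1 (ENSMUSG00000051695.6, chr6:86524492-86526322, minus strand, GRCm38) was at 287 and 312 CPM in the NMuMG libraries and at 16.6 and 14.2 CPM in E1KD. The target of the shRNA was thus far lower in both silenced libraries, with a log2 fold change of -4.20 (SE 0.0853, adjusted p = 1.5e-14). Of the 7 tested members of a list of the PCBP family and of mRNAs that hnRNP E1 is known to silence, only Pcbp1 fell and only Dab2 rose. Dab2, the gene of an endocytic adaptor, was at 0.0531 and 0.113 CPM in NMuMG and at 2.09 and 1.87 CPM in E1KD, which is 1.46 on the log2 scale (SE 0.0616). Fam3c, the gene of the secreted ILEI protein, was at 25.0 and 26.6 CPM in NMuMG and at 24.6 and 19.6 CPM in E1KD, which is -0.22 on the log2 scale. Pcbp2, the closest relative of Pcbp1, was at 34.5 and 31.2 CPM in NMuMG and at 83.9 and 42.8 CPM in E1KD. The E1KD libraries of Pcbp2 lay apart by more than E1KD replicate 2 lay from NMuMG, and the gene was not called (log2 fold change 0.85, adjusted p = 0.0014). Without E1KD replicate 2 it was (1.33). Map3k12 and a noncoding gene overlap Pcbp2 on the other strand, and reads of the genes may be shared.

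Among 13 tested EMT transcription factors, Twist2, Snai1, Zeb2 and Foxc1 rose and none fell, and the median of the list was 0.78 with deposited and 0.59 with rescaled values, against 0.22 and 0.03 over all tested genes. Snai1, the zinc finger repressor of E-cadherin, was at 0.230 and 0.321 CPM in NMuMG and at 4.31 and 3.92 CPM in E1KD (log2 fold change 2.00, SE 0.0868). Twist2, a basic helix-loop-helix factor, went from 0.0813 and 0.0566 CPM to 4.61 and 3.52 CPM (2.24, SE 0.0807). Zeb2, a zinc finger homeobox repressor, was already present in NMuMG at 5.15 and 5.34 CPM and reached 18.6 and 15.6 CPM (1.53, SE 0.0825). Foxc1, a forkhead factor, rose from 0.106 and 0.396 CPM to 2.74 and 2.13 CPM (1.46, SE 0.116). The levels of all 4 are well above those of NMuMG in both E1KD libraries, and those of Snai1, Twist2 and Foxc1 stayed under 5 CPM. Zeb1, at 23.2 and 21.8 CPM in NMuMG and 37.2 and 29.9 CPM in E1KD, was not called (0.55, adjusted p = 6.8e-05). Snai2 was called with deposited values (1.03) and not with rescaled ones (0.89). Twist1 was at 0 in both NMuMG libraries and at 0.354 and 0.333 CPM in E1KD, too low to be tested.

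Of 12 tested regulators of epithelial identity, 4 rose, Foxa1 among them, and 1 fell. Id3 and Id1, inhibitors of basic helix-loop-helix factors and targets of BMP signalling, stood at 8.001 and 7.83 CPM and at 85.9 and 92.1 CPM in NMuMG. In E1KD they reached 68.0 and 55.4 CPM and 253 and 223 CPM, log2 fold changes of 2.81 and 1.41. Gata3, a factor of the luminal mammary lineage, rose from 0.354 and 0.321 CPM to 2.46 and 2.37 CPM. Ehf, an ETS factor of epithelia, fell from 51.2 and 48.9 CPM to 16.99 and 12.6 CPM (-1.70, SE 0.125).

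The genes of adhesion and polarity moved unevenly. Of 21 tested members of the list of epithelial junctions and polarity, 4 fell and 1, Pkp1, rose. With rescaled values alone 7 were called lower. The median of the list was -0.42 with deposited and -0.63 with rescaled values. Marveld2, the gene of tricellulin at tricellular tight junctions, was at 10.5 and 11.1 CPM in NMuMG and at 0.0591 and 0.0924 CPM in E1KD (-3.46, SE 0.0802). Mal2, a membrane protein of transcytosis to the apical surface, went from 14.8 and 14.5 CPM to 0 and 0.0185 CPM (-3.96, SE 0.0596). Crb3, an apical polarity protein, fell from 13.6 and 14.1 CPM to 4.51 and 3.05 CPM (-1.65, SE 0.138). Spint2, an inhibitor of epithelial surface proteases, fell from 90.04 and 98.1 CPM to 39.2 and 28.5 CPM (-1.46, SE 0.131). Marveld2 and Mal2 were thus close to undetected in E1KD, while Crb3 and Spint2 kept part of their level. Crb3 overlaps Slc25a23 on the opposite strand, and reads of the pair may be shared. The best known junction genes changed less. Cdh1, the gene of E-cadherin, was at 232 and 237 CPM in NMuMG and at 205 and 149 CPM in E1KD, and was not called (-0.42, adjusted p = 0.0026). Tjp1, the gene of ZO-1, gave -0.14. Ocln, the gene of occludin, was at 18.6 and 18.9 CPM against 10.8 and 7.82 CPM, a log2 fold change of -0.95 that passed the limit after rescaling (-1.15).

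Of 7 tested keratins, Krt7 and Krt20 fell and Krt80 rose. Krt7, a simple epithelial keratin, was at 18.6 and 18.7 CPM in NMuMG and at 2.48 and 1.65 CPM in E1KD (-2.70, SE 0.126). Krt20 fell from 131 and 128 CPM to 29.2 and 22.3 CPM (-2.30), and Krt80 rose from 17.2 and 17.8 CPM to 60.3 and 48.5 CPM (1.58). The abundant pair of simple epithelia, Krt8 and Krt18, was not called. Krt8 had 1285 and 1302 CPM in NMuMG against 1683 and 1243 CPM in E1KD (0.16), and Krt18 gave 0.38. Epcam, an epithelial adhesion molecule, was listed at 0 in the 4 libraries, and 15 of 18 markers of the mammary lineage were too low to be tested. Krt8, Krt18 and Cd24a were the members tested, and the list summed to 2514 and 2540 CPM in NMuMG and to 3703 and 2710 CPM in E1KD. Csn3, the gene of kappa-casein, was at 1.22 and 0.999 CPM in NMuMG and at 0.709 and 0.517 CPM in E1KD, and 12 or 13 of the 18 were at or under 3 reads in each of these libraries. Of 24 markers of immune, endothelial, fat, fibroblast, glial and muscle cells, 1 was tested and none was called, and their sum stayed between 3.02 and 4.70 CPM in the 4 libraries.

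The promoters of the junction and keratin genes that fell are shown because Snail and ZEB factors bind E-boxes of the sequence CAGGTG. In RefSeq's table on GRCm38.p6, 5 of the 6 genes (Mal2 was not matched) have a promoter, taken from 250 bases before to 50 bases after the start, the first listed where a gene has several. CAGGTG on either strand, written CAGGTG or CACCTG and counted as 1 site, was found in 4 of the 5, with 4 sites in Crb3, 3 in Spint2, 1 in Marveld2, 1 in Krt7 and 0 in Krt20. Of all 27025 promoters of this length 20.03% hold the motif, and of those of 8294 tested protein-coding genes 16.19%. The windows are chr17:57061951-57062250 (plus strand), chr7:29281928-29282227 (minus strand), chr13:100616922-100617221 (minus strand) and chr15:101412153-101412452 (plus strand). The motif is in capitals, and each sequence reads 5' to 3' on the strand of the gene.
Crb3: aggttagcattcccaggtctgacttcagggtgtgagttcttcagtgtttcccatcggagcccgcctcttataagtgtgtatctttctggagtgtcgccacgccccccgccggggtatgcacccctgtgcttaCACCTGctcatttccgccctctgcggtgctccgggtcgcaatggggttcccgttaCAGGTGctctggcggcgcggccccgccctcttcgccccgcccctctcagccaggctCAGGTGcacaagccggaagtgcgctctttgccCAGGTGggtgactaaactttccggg
Spint2: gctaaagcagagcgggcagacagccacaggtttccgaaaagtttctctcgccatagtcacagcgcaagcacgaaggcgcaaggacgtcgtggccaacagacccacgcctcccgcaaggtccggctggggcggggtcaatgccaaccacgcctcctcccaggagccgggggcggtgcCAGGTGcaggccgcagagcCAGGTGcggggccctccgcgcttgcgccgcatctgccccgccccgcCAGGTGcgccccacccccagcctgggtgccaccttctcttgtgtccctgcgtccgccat
Marveld2: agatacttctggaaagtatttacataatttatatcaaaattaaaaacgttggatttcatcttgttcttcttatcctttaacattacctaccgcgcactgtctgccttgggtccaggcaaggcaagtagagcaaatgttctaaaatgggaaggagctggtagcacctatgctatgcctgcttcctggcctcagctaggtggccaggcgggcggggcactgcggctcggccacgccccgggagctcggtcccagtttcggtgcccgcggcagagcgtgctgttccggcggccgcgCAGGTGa
Krt7: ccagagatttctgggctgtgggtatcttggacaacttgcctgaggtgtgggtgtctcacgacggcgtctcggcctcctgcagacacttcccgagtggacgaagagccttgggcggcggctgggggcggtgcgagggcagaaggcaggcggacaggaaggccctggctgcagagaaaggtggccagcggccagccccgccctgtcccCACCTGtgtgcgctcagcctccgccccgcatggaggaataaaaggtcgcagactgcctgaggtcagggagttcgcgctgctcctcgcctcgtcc
The site in Marveld2 lies after the start, near the 3' end of the window, and 3 of the 4 sites in Crb3 lie before it. A match of letters is a description of these windows and does not show that a factor binds there. The genes were picked because they fell, and no test was run on the share with the motif. Between E1KD SCR and Empty vector, Marveld2, Spint2, Krt7 and Krt20 were also called lower, and Snai1 (0.27) and Zeb2 (0.21) were not called. Whether Snail or ZEB factors lowered these genes was not tested.

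The mesenchymal markers that could be tested moved in one direction. Of 15 tested, 7 rose and none fell, with a median of 1.02 (0.81 rescaled). The other 10 of the 25 listed were too low to be tested, among them Acta2, Tagln, Cnn1, Myl9, Thy1 and Cdh11. Nes, the gene of the intermediate filament nestin, had the largest change, from 0.0531 and 0.132 CPM in NMuMG to 301 and 278 CPM in E1KD (8.05, SE 0.0691, adjusted p = 3.8e-18). Fn1, the gene of fibronectin, was at 10.8 and 10.5 CPM in NMuMG and at 206 and 119 CPM in E1KD, a 15.2-fold difference of means (3.76, SE 0.174). S100a4, a calcium-binding protein of motile cells, rose from 62.8 and 60.4 CPM to 544 and 314 CPM (2.73), and Cdh2, the gene of N-cadherin, from 21.6 and 21.8 CPM to 94.6 and 58.3 CPM (1.73). Vim, the gene of vimentin, was abundant in NMuMG already, at 474 and 496 CPM, and stood at 1470 and 1122 CPM in E1KD (1.40, SE 0.109). In Fn1, S100a4 and Cdh2 the E1KD libraries lay far apart, and both were above both NMuMG libraries.

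**Figure D2:**
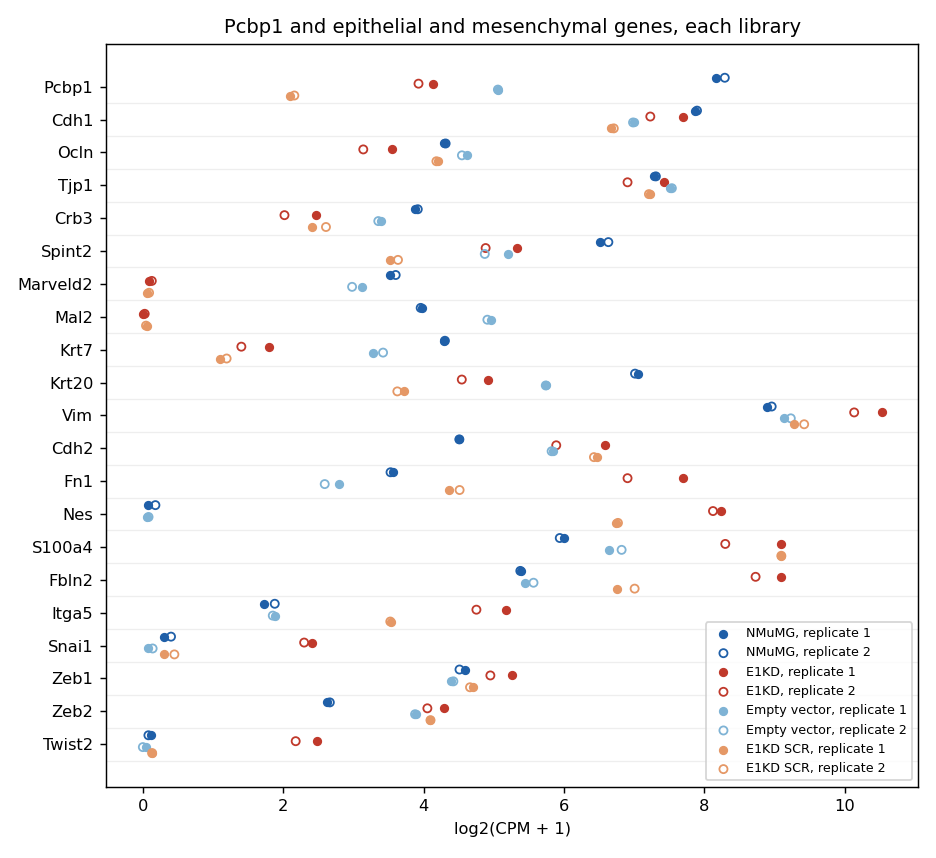
Level of Pcbp1 and of 20 epithelial and mesenchymal genes in each library of NMuMG and E1KD and of Empty vector and E1KD SCR, on the log2(CPM + 1) scale. Each point is 1 library, filled for replicate 1 and open for replicate 2. Pcbp1 is low in both silenced lines, Cdh1 and Tjp1 move little, Marveld2 and Mal2 are near 0 in both silenced lines, and Snai1 and Twist2 are higher in E1KD than in NMuMG.

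Part of the matrix genes followed. Of 24 tested collagens and other matrix genes 10 rose and 1 fell, and with rescaled values alone 10 were called higher and 3 lower. The other 28 of the 52 listed were too low to be tested, among them Col1a1, Col1a2, Col3a1, Postn, Tnc and Lox. Col5a1, a fibrillar collagen chain, was at 0.0354 and 0 CPM in NMuMG and at 15.0 and 11.2 CPM in E1KD (3.78, SE 0.116). Col12a1, a fibril-associated collagen, went from 0.195 and 0.283 CPM to 14.4 and 9.63 CPM (3.37), and Fbln2, an elastic fibre protein, from 40.8 and 40.6 CPM to 545 and 423 CPM (3.53, SE 0.118). Loxl4, an oxidase that cross-links collagen, rose from 8.32 and 8.995 CPM to 78.8 and 58.9 CPM (2.84). The chains of the basement membrane collagen, Col4a1 and Col4a2, rose by less, 1.49 and 1.56. Agrn, the gene of the heparan sulfate proteoglycan agrin, was the member that fell, from 406 and 409 CPM to 186 and 118 CPM (-1.46). Col4a1, Col4a2 and Agrn were named after their values were seen. Of 12 tested integrins, Itga5, the fibronectin receptor subunit, rose from 2.32 and 2.68 CPM to 35.1 and 25.9 CPM (3.16, SE 0.109). Itgb7 rose from 1.38 and 1.47 CPM to 7.85 and 3.97 CPM (1.45). Itga2, a collagen receptor subunit, fell from 141 and 136 CPM to 68.3 and 56.5 CPM (-1.14), and rescaled values called 3 integrins lower in all.

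Of 19 tested matrix proteases and inhibitors 6 rose and none fell. Serpinh1, the collagen chaperone HSP47, was at 0.0354 and 0.0943 CPM in NMuMG and at 71.5 and 61.2 CPM in E1KD (5.98, SE 0.110). Plau, the gene of urokinase, was at 0 and 0.0189 CPM against 8.48 and 6.82 CPM (3.09). Mmp2, a gelatinase, was at 0 in both NMuMG libraries and at 3.19 and 2.37 CPM in E1KD, at least 50.6-fold higher against 3 reads in each NMuMG library. All 3 were close to undetected in NMuMG.

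In the TGFb and BMP pathway, 9 of 39 tested genes rose and 2 fell, with a median of 0.47 (0.27 rescaled). Of the ligands, Inhbb, the activin beta B chain, rose from 4.67 and 4.90 CPM to 45.4 and 40.3 CPM (2.92, SE 0.0870). Bmp2 was at 0 in both NMuMG libraries and at 5.32 and 4.29 CPM in E1KD, at least 87.5-fold higher. Tgfb1 rose from 4.09 and 5.02 CPM to 22.2 and 18.6 CPM (1.95), and Tgfb2 from 1.03 and 0.905 CPM to 6.81 and 5.88 CPM (1.90). Bmp4 fell from 6.59 and 6.24 CPM to 1.77 and 1.53 CPM (-1.48). The BMP ligands therefore moved in opposite directions, and the TGFb ligands in the same one. Lrrc32, which tethers latent TGFb to the cell surface, rose from 0.0885 and 0.245 CPM to 7.32 and 7.21 CPM (2.83, SE 0.0832). Tgfbr3, the coreceptor betaglycan, fell from 16.9 and 18.4 CPM to 2.49 and 1.42 CPM (-2.68, SE 0.136). Tgfb1, Tgfb2 and Bmp4 were named after their values were seen.

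Axon guidance genes moved in both directions, 11 of 46 tested up and 6 down. Epha2, an ephrin receptor kinase, was at 1.93 and 2.13 CPM in NMuMG and at 267 and 192 CPM in E1KD, a 113-fold difference of means (6.23, SE 0.122, adjusted p = 9.8e-15). Flrt2, a ligand of netrin receptors of the Unc5 family, rose from 0.212 and 0.132 CPM to 19.9 and 17.8 CPM (4.08), and Igsf11, a synaptic adhesion molecule, from 2.02 and 2.02 CPM to 45.7 and 36.9 CPM (3.80, SE 0.0870). Sema4f, a transmembrane semaphorin, rose from 0.0531 and 0.0754 CPM to 20 and 15.6 CPM (4.13). Bdnf, a neurotrophin, was at 3.38 and 3.77 CPM against 39.7 and 34.7 CPM (3.06), and the semaphorin coreceptor Nrp1 at 19.2 and 19.6 CPM against 99.7 and 68.0 CPM (2.03). Among those that fell were Flrt3 (-1.55), the semaphorin Sema4a (-1.28), its family's receptor Plxnb1 (-1.19) and the Slit receptor Robo1 (-1.12). The changes of those that fell were smaller than those of Epha2, Flrt2, Igsf11, Sema4f, Bdnf and Nrp1. Bdnf, Nrp1, Flrt3, Sema4a, Plxnb1 and Robo1 were named after their values were seen.

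**Figure D3:**
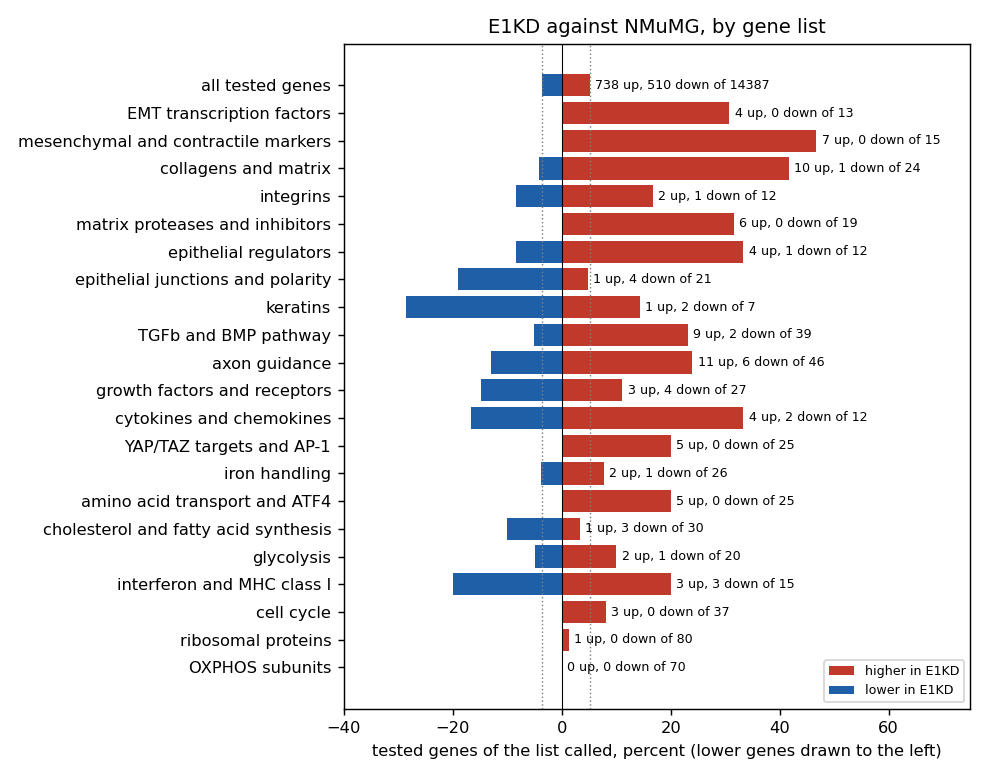
Share of the tested genes of each list that rose (to the right) or fell (to the left) between E1KD and NMuMG, in percent, with the counts beside each bar. Dotted lines mark the shares over all tested genes, 5.13% and 3.54%. The lists of EMT factors, mesenchymal markers, matrix, proteases, cytokines and epithelial regulators reach beyond 30% to the right, keratins reach furthest to the left, and ribosomal proteins and OXPHOS subunits stay near 0.

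In the list of YAP/TAZ targets and AP-1, 5 of 25 tested genes rose and none fell, with a median of 0.41 (0.20 rescaled). Of the YAP/TAZ targets in it Crim1 rose, while Ctgf, Cyr61, Ankrd1, Amotl1, Amotl2, Ajuba, Lats2, Axl and Nuak2 did neither. The count is therefore not read as a rise of YAP/TAZ targets. Between E1KD SCR and Empty vector, 1 gene of the list was called higher and 3 lower. Tead2, a DNA-binding partner of YAP and TAZ, was at 0 in both NMuMG libraries and at 50.1 and 36.8 CPM in E1KD, at least 792-fold higher. The AP-1 subunits Jun, Fosl1 and Fosl2 rose by 1.73, 1.68 and 1.55, with Fosl2 going from 37.3 and 39.4 CPM to 120 and 108 CPM. Of 12 cytokines and chemokines 4 rose and 2 fell, the latter Il33 and Cx3cl1. Il11, a cytokine of the IL-6 family, rose from 0.124 and 0.170 CPM to 8.46 and 6.62 CPM (2.89), the monocyte chemokine Ccl2 from 27.9 and 27.4 CPM to 157 and 99.0 CPM (2.14), its neighbour Ccl7 by 1.71 and the macrophage factor Csf1 from 69.5 and 66.7 CPM to 183 and 160 CPM (1.32). Of 27 growth factors and receptors 3 rose and 4 fell. Igfbp4, which binds insulin-like growth factors, showed one of the largest falls, from 97.6 and 105 CPM to 0.315 and 0.0924 CPM (-6.41, SE 0.0959). Igfbp3, of the same family, rose from 11.2 and 12.1 CPM to 71.0 and 61.9 CPM (2.42), and Igf2r, the mannose 6-phosphate receptor that clears IGF2, from 2.64 and 2.83 CPM to 48.9 and 28.4 CPM (3.36). The 2 IGF-binding proteins thus moved in opposite directions. Fgf1 fell from 46.3 and 44.7 CPM to 4.09 and 3.27 CPM (-3.32).

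Over all tested genes 5.13% rose, 3.54% fell and 91.3% did neither. In iron handling 2 of 26 tested genes rose and 1 fell, and 88.5% did neither. The counts for iron handling, glycolysis and cholesterol synthesis are not far from the overall shares and are not read as results about these pathways. Trf, the gene of transferrin, fell from 91.3 and 91.8 CPM to 0.967 and 0.351 CPM (-5.83, SE 0.127), while Hmox1, heme oxygenase 1, rose from 10.3 and 9.504 CPM to 55.4 and 44.7 CPM (2.22), and Tfr2, a transferrin receptor, by 1.55. In glycolysis 2 of 20 rose and 1 fell, and 85% did neither. Pfkp, a phosphofructokinase that overlaps Pitrm1 on the other strand, rose from 0.353 and 0.746 CPM to 34.7 and 24.2 CPM (4.29), Eno2, the neuronal enolase, by 1.75, and Aldoc, an aldolase, fell from 9.81 and 9.90 CPM to 1.87 and 1.13 CPM (-2.14). Pfkfb3, which makes an activator of phosphofructokinase, was called higher with deposited values (1.02) and not with rescaled ones (0.81), and Slc2a1, a glucose transporter, was called lower with rescaled values alone (-1.19). The median of the list was -0.15 (-0.37 rescaled). Pfkfb3 and Slc2a1 were named after their values were seen. In cholesterol and fatty acid synthesis 3 of 30 fell, 1 rose and 86.7% did neither, and with rescaled values alone 7 were called lower. Scd2, a fatty acid desaturase, fell from 2240 and 2237 CPM to 1088 and 934 CPM (-1.15), Fads1 by 1.05 and Hmgcs1, of the mevalonate pathway, by 1.04. Without E1KD replicate 2, Fads1 (-0.94) and Hmgcs1 (-0.83) were not called. In amino acid transport and the ATF4 response 5 of 25 rose, and 80% did neither. The median of this list was 0.22 (0.01 rescaled), near the 0.22 (0.03 rescaled) of all tested genes. Atf4 itself, Asns, Psat1, Phgdh, Trib3, Ddit3 and Chac1 were not called. Slc38a1, a glutamine transporter, rose from 0.0531 and 0.0189 CPM to 69.6 and 62.1 CPM (6.01). Slc7a5, a leucine transporter, rose from 65.7 and 64.1 CPM to 215 and 180 CPM (1.58), and Atf3 and Cbs by 1.40 and 1.30. AC114005.5 overlaps Slc7a5 on the other strand.

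In the list of interferon genes and MHC class I, 3 of 15 tested genes rose and 3 fell. The class I heavy chains H2-D1 and H2-K1 rose from 1.35 and 1.53 CPM to 15.0 and 11.6 CPM (2.54) and from 6.73 and 5.41 CPM to 29.9 and 23.5 CPM (1.96), and Bst2, the gene of tetherin, by 1.51. Ifit3, an antiviral effector, fell from 5.31 and 4.51 CPM to 0.965 and 0.887 CPM (-1.61). Class I genes have near-identical copies, so their values are uncertain. Of 37 tested cell cycle genes 9 were called higher with deposited values and 3 with rescaled ones. These were Mcm5, of the replicative helicase, from 27.6 and 28.2 CPM to 128 and 71.3 CPM (1.74), Ccne1, the gene of cyclin E1 (1.45), and Cdkn1a, the gene of the inhibitor p21, from 55.0 and 56.8 CPM to 146 and 122 CPM (1.24). Of the cell cycle list 91.9% neither rose nor fell, near the 91.3% of all tested genes. The count is therefore not read as a result about the cell cycle. Of 10 tested histone genes 2 fell, Hist2h2be (-1.94) and Hist1h1c (-1.60). Of 80 ribosomal protein genes 4 were called higher with deposited values, and Rpl27 alone rose, from 22.3 and 23.1 CPM to 75.1 and 38.9 CPM. Without E1KD replicate 1 it was not called (0.75), nor was any other ribosomal protein or OXPHOS subunit, whereas without E1KD replicate 2, 46 of 80 and 34 of 70 were called higher.

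Outside these lists, some genes that rose went from near 0 to a high level. Ckap4, a membrane protein of the endoplasmic reticulum, was at 0.0354 and 0 CPM in NMuMG and at 53.3 and 48.5 CPM in E1KD (5.67, SE 0.0686). Flnc, the gene of filamin C, was at 0.0354 and 0.0189 CPM against 153 and 91.4 CPM (6.86), and Zfp518b, a zinc finger protein, at 0 in both NMuMG libraries against 34.0 and 31.5 CPM, at least 597-fold higher. Gnao1, a G protein alpha subunit abundant in brain, was at 0.0354 and 0.0754 CPM against 24.6 and 22.5 CPM (4.54), Gxylt2, a xylosyltransferase of Notch, at 0.0708 and 0.207 CPM against 43.3 and 36.9 CPM (5.17), and the small heat shock protein Hspb8 at 0.425 and 0.358 CPM against 79.7 and 66.4 CPM (5.73). These 6 genes went from under 0.5 CPM in both NMuMG libraries to above 20 CPM in both E1KD libraries. Among those that fell, Slc16a12, a creatine transporter, went from 80.7 and 78.2 CPM to 0.610 and 0.499 CPM (-5.69, SE 0.0837). Kcnk5, a potassium channel, fell from 41.4 and 41.0 CPM to 0.177 and 0.166 CPM (-5.17), Pcdh10, a protocadherin, from 51.6 and 54.1 CPM to 0.689 and 0.591 CPM (-5.04), F2r, the thrombin receptor, from 41.7 and 42.5 CPM to 0.945 and 0.628 CPM (-4.60), and Gabre, a GABA-A receptor subunit, from 19.2 and 19.03 CPM to 0.0394 and 0 CPM (-4.30). Of other gene types, RP24-378G4.3 rose from 0.230 and 0.415 CPM to 154 and 142 CPM (6.82), and RP23-402H19.3 and RP23-262J12.1 by 3.69 and 3.22. ENSMUSG00000102700.1 (-2.92), Gm26883 (-2.37) and RP23-122J17.9 (-3.02) fell. These 3 overlap the protein-coding genes Sh3bp4, Tshz2 and Serpina1b, so their reads are uncertain. Serpina1b itself went from 50.6 and 51.6 CPM to 2.07 and 1.22 CPM and Tshz2 from 9.74 and 10.7 CPM to 1.11 and 1.26 CPM, while Sh3bp4 was at 67.8 and 67.9 CPM in NMuMG and at 121 and 102 CPM in E1KD.

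The pair of E1KD SCR and Empty vector has the silencing in other libraries, each line carrying a vector. It shares no library with the first comparison, but E1KD SCR was made from E1KD cells, so the pair is not a second silencing. These libraries are also of another kind. The mitochondrial ribosomal RNA mt-Rnr2 was at 161700 and 165100 CPM in Empty vector and at 411 and 429 CPM in NMuMG, so levels are compared within each pair only. Pcbp1 was at 32.3 CPM in both Empty vector libraries and at 3.28 and 3.46 CPM in E1KD SCR (-2.93, SE 0.0853). In this pair 939 genes were called (6.53%), 452 higher (3.14%) and 487 lower (3.39%). Of the 738 genes that rose in E1KD, 364 (49.3%) were called higher here and 1 lower, with a median of 0.99 against 1.68 in E1KD. Of the 510 that fell, 284 (55.7%) were called lower and 3 higher, with a median of -1.12 against -1.42. Over all tested genes the median was 0.03. The difference between the comparisons, tested in the same fit, was called for 555 genes (3.86%), 416 of them more positive in E1KD against NMuMG (2.89%), and 139 more negative (0.966%), or 276 and 205 with rescaled values. For a gene near 0 on the same side of both pairs, this difference follows its level on the other side across the kinds of library.

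**Figure D4:**
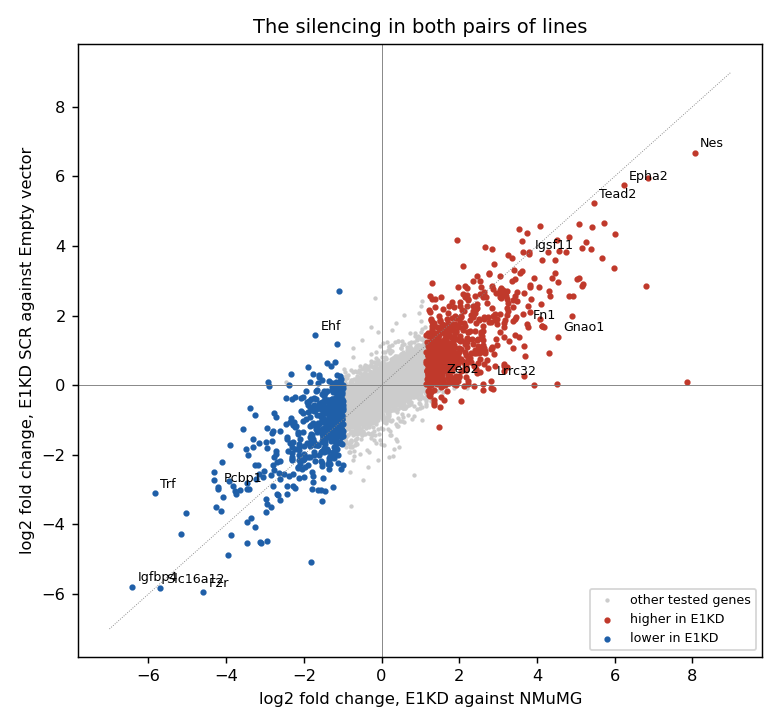
Log2 fold change of E1KD against NMuMG (x axis) and of E1KD SCR against Empty vector (y axis) for each tested gene, with the 738 genes that rose in red, the 510 that fell in blue and other genes in grey. The dotted line marks equal changes. Tead2, Epha2, Slc16a12 and Igfbp4 lie near that line, Nes, Lrrc32, Zeb2 and Gnao1 lie below it, and Ehf lies in the upper left.

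Genes with large changes in both pairs included Nes, at 0.0411 and 0.0579 CPM in Empty vector and at 105 and 108 CPM in E1KD SCR (6.68), Epha2 (5.74), Tead2 (5.22), Slc16a12 (-5.82), Igfbp4 (-5.79) and F2r (-5.95). Epha2, Tead2, Slc16a12 and Igfbp4 did not differ by a call between the pairs, with differences of 0.49, 0.23, 0.13 and -0.62. The junction genes Marveld2 (-2.98), Mal2 (-4.88) and Spint2 (-1.46), the keratins Krt7 (-2.20) and Krt20 (-2.07), S100a4 (2.36) and Igsf11 (3.76) were called in the second pair as well, and none of these 7 differed by a call between the pairs. Of the 13 tested EMT factors, none was called between E1KD SCR and Empty vector. Snai1 was at 0.0548 and 0.101 CPM in Empty vector and at 0.230 and 0.365 CPM in E1KD SCR (0.27), Twist2 gave 0.11, and Zeb2, at 13.8 and 13.7 CPM against 15.98 and 16.1 CPM, gave 0.21. Foxc1 was at 0.0137 and 0.0290 CPM in Empty vector and at 0.758 and 0.921 CPM in E1KD SCR. Its libraries did not overlap in this pair either, with a difference of 0.85 (adjusted p = 3.3e-05) under the fold limit, and the difference between the pairs was not called (0.61). That difference was called for Snai1 (1.74, adjusted p = 1.5e-07), Twist2 (2.12, adjusted p = 9.8e-09) and Zeb2 (1.32, adjusted p = 1.3e-06). Vim, at 560 and 600 CPM against 619 and 684 CPM, gave 0.17 and also differed (1.24, adjusted p = 4.2e-05). Ehf changed sign, from 21.2 and 20.1 CPM in Empty vector to 62.5 and 52.9 CPM in E1KD SCR (1.43). Mesenchymal markers were called higher in 3 of 15 cases, collagens and matrix in 4 of 24, with 5 lower, and axon guidance genes in 11 of 46, with 5 lower. A scrambled shRNA, the vectors and the kind of library differ between the pairs together, and their parts cannot be told apart.

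TGFb, which induces EMT in NMuMG cells, gives a second treatment against the same NMuMG libraries. Because both comparisons share these controls, values are set side by side and the direct contrast of E1KD with TGFb-treated NMuMG is the test. That contrast called 3839 genes (26.7%), 2928 higher in E1KD (20.4%) and 911 lower (6.33%), or 1799 and 1550 with rescaled values. Genes named here were called in it with both scalings unless stated. The level of Fn1 was higher still with TGFb, at 618 and 745 CPM against 206 and 119 CPM in E1KD (contrast -2.11). The same held for Lrrc32, at 142 and 155 CPM against 7.32 and 7.21 CPM (-4.18), Il11, at 153 and 164 CPM against 8.46 and 6.62 CPM (-4.23), Itga5 (-1.89) and Zeb2, at 50.3 and 53.3 CPM against 18.6 and 15.6 CPM (-1.55). These genes were raised over NMuMG in both, and lay nearer to NMuMG in E1KD.

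Other genes were far higher in E1KD than with TGFb. Tead2 was at 0 in both TGFb libraries, Zfp518b at 0 and 0.0167 CPM and Ckap4 at 0.0167 and 0 CPM, against 36.8 to 50.1, 31.5 to 34.0 and 48.5 to 53.3 CPM in E1KD (contrasts 5.46, 5.06 and 5.68). Epha2 was at 0.818 and 0.550 CPM with TGFb (contrast 7.08), and Nes, at 3.09 and 3.45 CPM, rose with TGFb to a small part of its level in E1KD (contrast 6.09). Several genes moved in opposite directions from NMuMG. S100a4 was at 62.8 and 60.4 CPM in NMuMG, at 544 and 314 CPM in E1KD and at 12.2 and 12.6 CPM with TGFb (contrast 4.95, SE 0.161). Id1, at 85.9 and 92.1 CPM in NMuMG, was at 253 and 223 CPM in E1KD and at 21.02 and 20.3 CPM with TGFb (3.46), and Id3 differed likewise (3.86). Fosl1 was higher in E1KD and lower with TGFb (3.35), Slc7a5 as well (3.42), and F2r, which fell in E1KD, stood at 228 and 241 CPM with TGFb (-7.05). Snai1 was at 6.93 and 8.63 CPM with TGFb, and its contrast with E1KD was called with rescaled values alone (-0.77 with deposited ones). The contrast of Sema4f, at 22.1 and 24.5 CPM with TGFb, was not called (-0.38), nor was that of Cdh1, at 129 and 137 CPM (0.39), or Ocln, at 9.52 and 9.03 CPM (-0.01).

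Some genes were near absent from one line and plainly present in the other. They were picked after their values were seen, from protein-coding genes with at most 3 reads in both libraries of one line and at least 5 CPM in both libraries of the other, and their values in NMuMG and E1KD are a description. By this rule 36 genes were present in E1KD alone and 12 in NMuMG alone. Genes of the first kind include Hoxa10, a homeobox factor, at 0 in both NMuMG libraries and at 11.04 and 8.65 CPM in E1KD. Fyn, a kinase of the Src family, was at 0 against 10.8 and 8.37 CPM, and Rab32, a small GTPase, at 0 against 22.7 and 19.9 CPM. Hs6st2 and Chst11, sulfotransferases of heparan and chondroitin sulfate, reached 20.2 and 18.0 CPM and 31.4 and 28.1 CPM, and Gpc1, a heparan sulfate proteoglycan, 47.1 and 36.2 CPM. Syt7 and Syt13, synaptotagmins of vesicle fusion, were at 0 in NMuMG and at 14.2 and 11.3 CPM and at 8.996 and 7.67 CPM in E1KD. The 12 of the second kind were Mal2, Gabre, Ndn, Palmd, Fam83g, Slc25a13, Trpa1, Meox2, Micu2, Cutal, Chic1 and Sox6. Slc25a13, the mitochondrial carrier citrin, was at 7.26 and 8.35 CPM in NMuMG, and Micu2, a regulator of the mitochondrial calcium uniporter, at 6.07 and 6.20 CPM, and both were at 0 in the E1KD libraries.

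These patterns recurred in libraries that the choice did not use, although the silenced lines all derive from E1KD. Of the 36 genes, 33 were at 1 CPM or more in E1KD SCR on average, 24 in E1KD carrying a shRNA against Platr18, 33 in cells of the primary tumor (M1P) and 32 in cells of the lung metastases (L1P). In lines without the silencing, 30 of the 36 were at or under 3 reads in Empty vector, 27 in NMuMG with TGFb, and 29 and 26 in the Platr18 clones 12 and 16. Between E1KD SCR and Empty vector 33 of the 36 were called higher, where 3.14% of all tested genes were. Hoxa10 was at 0 in both Empty vector libraries and at 6.96 and 7.59 CPM in E1KD SCR. In M1P it stood at 8.47 and 8.95 CPM, and the L1P libraries held 8.97 and 9.46 CPM. Others were low in 1 or both lines from the mice. Adcy1, at 35.5 and 29.9 CPM in E1KD, was at 0.192 and 0.230 CPM in M1P and at 0.0981 and 0.272 CPM in L1P. Olfm1, at 8.82 and 6.91 CPM in E1KD, was at 0.0873 and 0.0532 CPM in M1P and at 0 and 0.0194 CPM in L1P. Chst11 was at 0.105 and 0.142 CPM in M1P and at 2.16 and 1.59 CPM in L1P. Flnc, at 153 and 91.4 CPM in E1KD, was at 4.07 and 3.67 CPM in M1P and at 0.0785 and 0.0777 CPM in L1P. Of the 12 genes, 11 were at 1 CPM or more in Empty vector, 10 with TGFb and 10 in Platr18 clone 16. In Platr18 clone 12, which also lacks the silencing, 6 of the 12 were at 1 CPM or more, and Mal2 and Ndn were at or under 3 reads there, so low levels of these genes were not confined to the silenced lines. None of the 12 reached 1 CPM on average in E1KD SCR, E1KD with the Platr18 shRNA, M1P or L1P. Between E1KD SCR and Empty vector 11 of the 12 were called lower, where 3.39% of all tested genes were. Slc25a13 was at 21.4 and 21.8 CPM in Empty vector and at 0 in the 8 libraries of the other lines with the silencing, as was Micu2, at 10.6 and 10.1 CPM in Empty vector. The exception was Ndn, the imprinted gene of necdin, at 6.78 and 6.18 CPM in NMuMG and at 0.0137 and 0.0290 CPM in Empty vector.

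**Figure D5:**
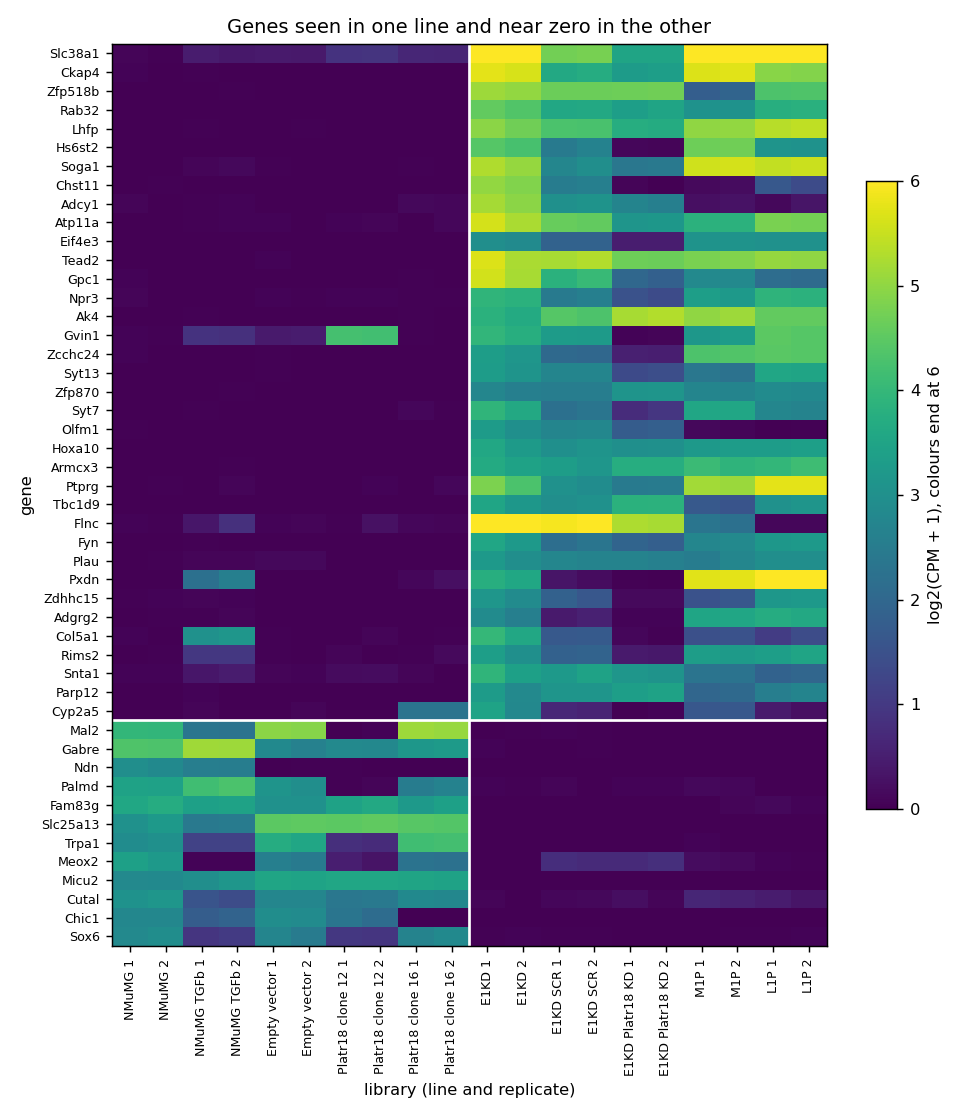
Level of the 36 protein-coding genes found in E1KD and near 0 in NMuMG (upper rows) and of the 12 with the opposite pattern (lower rows) in each of the 20 libraries, as log2(CPM + 1) with colours ending at 6. The white vertical line separates lines without (left) and with (right) the silencing. The upper right block is bright in most rows, the lower right block stays dark in the 12 rows, and in the lower left block Platr18 clone 12 has 6 of the 12 genes at 1 CPM or more.

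The nearest tested protein-coding genes on either side of the 12 genes mostly did not move with them. Of these 24 neighbours, Agmo, next to Meox2, went from 5.38 and 5.81 CPM to 0.276 and 0.351 CPM (-2.33), and Zdhhc20, next to Micu2, from 16.9 and 16.8 CPM to 6.32 and 6.10 CPM (-1.31). These 2 were called lower, and 3 were called higher, where 11.1% of all tested genes were called in either direction. The higher calls of Ext1 (1.12, and 0.91 rescaled) and Epn2 (1.05, and 0.83 rescaled) did not pass the fold limit after rescaling. The third was Pde3b, 931620 bases from Sox6, from 0.0885 and 0.189 CPM to 11.4 and 8.63 CPM (3.26). The other 19 were not called. Micu2 and Zdhhc20 lie 25984 bases apart, and Meox2 and Agmo 62106. Other neighbours lie far off, up to 3035032 bases between Ndn and Ube3a, so an unmoved neighbour says little about nearby sequence. Frrs1, which lies 10080 bases from Palmd, was at 75.6 CPM on average in NMuMG and 52.2 CPM in E1KD (-0.54). In lines that derive from E1KD, Meox2 was at 0.731 and 0.651 CPM in E1KD SCR, and Cutal at 0.559 and 0.461 CPM in M1P. Of the 12 genes, 9 were at or under 3 reads in E1KD SCR and 9 in M1P. Only RNA was measured, and whether any of the 12 genes was lost from the genome or not transcribed was not tested.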

How the data were processed

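The authors sequenced RNA from cultured lines, aligned reads with Bowtie2 (2.2.5 on GRCm38.p6, per the submitters' processing notes), counted them by expectation-maximization (Partek E/M, M18 annotation), and deposited 1 table of CPM values with 0.0001 added, which was subtracted. CPM summed to between 547491 and 797252 per library. Low values were whole multiples of 1 read (tolerance 0.05) for 93.8% to 98.6% of values, so counts were not recovered. Intervals were not computed, and the depth of 3 reads is used as a floor for counting error only.

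Values were fitted on log2(CPM + 1) with limma 3.58.1 in R 4.3.3 (lmFit, eBayes with trend) over all 20 libraries with 10 group means (10 residual degrees of freedom). Calls need an unadjusted p under 0.001 and a log2 fold change of at least 1 in size. Adjusted p is Benjamini-Hochberg over the 14387 genes, and the largest among the calls was 0.0025. The shared spread does not reflect the wider spread of the E1KD pair. With only the compared libraries in the limma fit, which leaves fewer degrees of freedom, adjusted p was 6.9e-06 for Nes and 1.1e-05 for Pcbp1. Median-of-ratios factors used 13763 genes. On simulated data 97 of 100 changes of 1.5 and 100 of 100 of 2.5 were recovered, with 2 of 14187 unchanged genes called. The simulated noise was independent, with a spread for each gene that all groups shared, and had no offset between the E1KD libraries. Only genes above 10 CPM in NMuMG were changed. The simulation checks the fit and does not measure the share of false calls in these data.

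Named genes are Pcbp1, the 6 protein-coding genes with the smallest p and the 6 with the largest change in each direction, the 3 other genes with the smallest p in each direction, the 4 largest in each list, and a fixed set of EMT and hnRNP E1 genes. Fth1 of that set was not analysed here, and some genes that the rule names are not reported here. Other names were chosen after values were seen. Members and lists were chosen with earlier results of these data known. Alternatives cover scaling, filter, pseudocount, libraries in the fit, single libraries left out and the replicate number as a block. Same-numbered libraries had deviations correlated at 0.0015 in E1KD and NMuMG, so the number does not pair them. Tables and figures used Python 3.11.15, numpy 2.4.6, pandas 2.3.3 and matplotlib 3.10.9. Promoters are from RefSeq.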

Additional observations from a re-analysis of the deposited data

Results flagged for a closer look

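For 43 named genes the log2 fold change of E1KD against NMuMG differed from that of E1KD SCR against Empty vector by a call, with deposited and with rescaled values. The difference itself was tested, as a contrast in the same limma fit, and adjusted p was at most 0.00016. Values are E1KD against NMuMG minus the second pair. In 42 the change was larger in size in E1KD against NMuMG, and F2r was the exception at 1.35. Most of these genes were named for the size or p of their change in E1KD against NMuMG, a choice that favours a larger change there, so this count is a description. On the log2(CPM + 1) scale, a gene near 0 on the same side of both pairs differs by its level on the other side. That level is then compared across the kinds of library. Gabre, near 0 in both silenced lines, averaged 19.1 CPM in NMuMG and 5.75 CPM in Empty vector. Ckap4, near 0 in NMuMG and Empty vector, averaged 50.9 CPM in E1KD and 11.7 CPM in E1KD SCR. Among factors and signalling genes the difference was 2.12 for Twist2, 1.74 for Snai1, 1.32 for Zeb2, 1.48 for Gata3, -3.14 for Ehf, 1.248 for Atf3, 3.15 for Gnao1 and 1.30 for Dab2. Among mesenchymal and matrix genes it was 1.37 for Nes, 1.24 for Vim, 2.01 for Fn1, 2.10 for Col5a1, 2.30 for Col12a1, 2.15 for Fbln2, 1.496 for Itga5, 1.64 for Mmp2 and 2.62 for Serpinh1. Among ligands, receptors and guidance genes it was 2.36 for Inhbb, 2.70 for Lrrc32, 1.78 for Bmp2, 2.00 for Il11, 1.55 for Ccl2, 1.49 for Igfbp3, -1.78 for Fgf1, 2.44 for Sema4f and 2.19 for Flrt2. Among genes of metabolism, transport and the secretory pathway it was 1.68 for Slc38a1, 2.02 for Ckap4, 2.27 for Gxylt2, 1.43 for Hmox1 and -2.72 for Trf. For the others it was -1.27 for Pcbp1, -1.37 for Pcdh10, -1.57 for Gabre, 1.48 for H2-D1, -1.82 for Hist1h1c, 3.95 for RP24-378G4.3, 2.86 for RP23-402H19.3, 2.70 for RP23-262J12.1, -3.02 for ENSMUSG00000102700.1 and -2.37 for Gm26883. In Ehf, Gata3, ENSMUSG00000102700.1 and Hist1h1c the pairs had opposite signs. ENSMUSG00000102700.1 and Gm26883 were near 0 in both lines of the second pair and overlap protein-coding genes. The kinds of library and the vectors differ between the pairs, and their part in these differences was not tested.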

How the results depend on the processing

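With a mean of at least 5 CPM required, calls were 977 (672 higher, 305 lower) in E1KD against NMuMG, 572 (262 and 310) in E1KD SCR against Empty vector and 312 (233 and 79) for their difference. Fewer genes were tested there. With pseudocount 0.1 the second pair gave 1410 calls, 694 of them higher, and the difference 237 lower. With median-of-ratios scaling the difference gave 276 higher, and the contrast of E1KD with TGFb 1799 higher and 1550 lower. With equal sums the difference gave 221 lower. With median-of-ratios factors and only the compared libraries in the fit, chosen after the data were seen, calls were 687 higher in E1KD against NMuMG, 267 higher for the difference, and 1485 higher and 1507 lower against TGFb. With each library left out in turn, calls in E1KD against NMuMG ranged from 1409 to 2882, those higher from 740 to 2429, those for the difference from 517 to 1581, those for the difference that were higher from 316 to 1440, and those higher in E1KD than with TGFb from 1943 to 4282. The extremes came from leaving out an E1KD library. With replicate 2 left out, its partner with the larger scale stood alone, and the lone library is assumed to vary like the others. The replicate number as a block gave 1081 higher and 510 lower in E1KD, 451 and 486 in the second pair, 415 and 139 for the difference, and 2898 and 911 against TGFb. Same-numbered E1KD and TGFb libraries had deviations correlated at -0.41, and with the TGFb numbers crossed the block gave 2922 and 911. Under the other settings counts stayed within 1.5 times. No named gene changed direction under any setting. For genes picked with libraries that did not overlap, leaving out a library could not have changed it in E1KD against NMuMG. Calls of Snai2, Ocln, Pcbp2, Rpl27, Fads1 and Hmgcs1 depended on the setting, and the cause was not tested.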

Other observations

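E1KD replicate 1 differed from replicate 2 by more than scale. Over the tested genes, 104 lay over 4-fold apart between the E1KD libraries, 83 of them processed pseudogenes, where no other replicate pair had more than 1 such gene. The median absolute deviation of the log2 ratio was 0.15 in the E1KD pair and between 0.039 and 0.073 in the other 9. The median log2 fold change of the 80 ribosomal protein genes was 0.51 with deposited values, 0.30 after rescaling and 0.03 without replicate 1, and that of the 70 OXPHOS subunits 0.54, 0.34 and 0.05, so rescaling by 1 factor a library left part of the offset in these lists. Of 2171 processed pseudogenes tested, 54 were called higher with deposited values, 26 after rescaling, 23 without replicate 1 and 409 without replicate 2.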
